A study of Caenorhabditis elegans with 2 samples.

Results

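The 6 yolk protein genes of Caenorhabditis elegans (vit-1 to vit-6) and 3 genes for TALE-class homeodomain proteins (ceh-60, ceh-20 and unc-62) were examined for regions of UNC-62 chromatin immunoprecipitation and sequencing (ChIP-seq) signal. They were taken by name, as 9 of the 19973 protein-coding genes on the nuclear chromosomes of WBcel235. A region was assigned to a gene where its summit, the position of its highest signal, lay in the gene or within 2000 bp of it. The worms were whole L4 larvae of strain OP600, with unc119(ed3) in the background and an integrated array, wgIs600, that holds unc-62 joined to TY1, EGFP and FLAG sequences together with unc119. All samples were of this 1 group, in 2 biological replicates of pooled males and females, and the labels give unc-62 as what the antibody was against, without saying whether it bound the protein or the tag. No second stage, strain or treatment was available for comparison, the control library was not analysed here, and the labels name no change in the worms' own copy of unc-62. In whole animals, binding in few cells and weak binding in many cells cannot be told apart.

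Vitellogenins are large lipid-carrying proteins that the hermaphrodite intestine makes in bulk from the end of larval life and that oocytes take up as yolk. Male intestines do not make them. UNC-62 is a TALE homeodomain protein of the Meis and Homothorax family, and such proteins commonly bind DNA beside a partner of the Pbx family. The worm's Pbx-type proteins include CEH-60, which is known to act with UNC-62 on yolk genes in the intestine, and CEH-20, which acts with UNC-62 in larval cell migration and cell fate.

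Among the 9 genes, ceh-60 was the only 1 with a region in the thresholded list, the short list that the authors kept after comparing the replicates. vit-6 followed, with a region just before its start that was found in both replicates and ranked 264 of 4849 in the pooled list. vit-1 had a weaker region at its start and vit-4 had one past its end, and neither was matched by an overlapping region of replicate 1. vit-2, vit-5 and ceh-20 had regions of low rank only. vit-3 and unc-62 itself had none in any list.

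The lists held 18114 regions for replicate 1, 20477 for replicate 2, 4849 for both replicates pooled and 197 after thresholding. The thresholded regions were the 197 highest of the pooled list. The longer lists include weak regions by construction, so the share of all genes with a region is the measure to set each count against. Regions were ranked within their list by the authors' signal value, with rank 1 the highest, and q is the authors' q-value. Ties took the smallest rank. Signal values were not compared between lists, because their scales differed.

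In the pooled list 5 of the 9 genes had a region, against 27% of all nuclear protein-coding genes. Replicate 1 had a region at 7 of the 9, against 68.9%, and replicate 2 at 5 of the 9, against 71.7%. A thresholded region lay at 1 of the 9, against 1.25%. A region with q of 0.05 or less lay at 2 of the 9 in the pooled list, against 2.31%, at 2 in replicate 1, against 9.89%, and at 3 in replicate 2, against 4.1%. Regions of the replicates that shared at least 1 bp lay at 2 of the 9, against 27.2%, and at the same 2 genes the q-value was 0.05 or less in each replicate, against 1.77%. The replicate counts, at any rank, lay on either side of these shares. The pooled count was above its share. The yolk genes are longer than most genes, and 4 of the 6 had a pooled region, against 36.4% of genes of similar length (the same decile). The 2 genes with matched regions of low q were vit-6 and ceh-60.

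**Figure D1:**
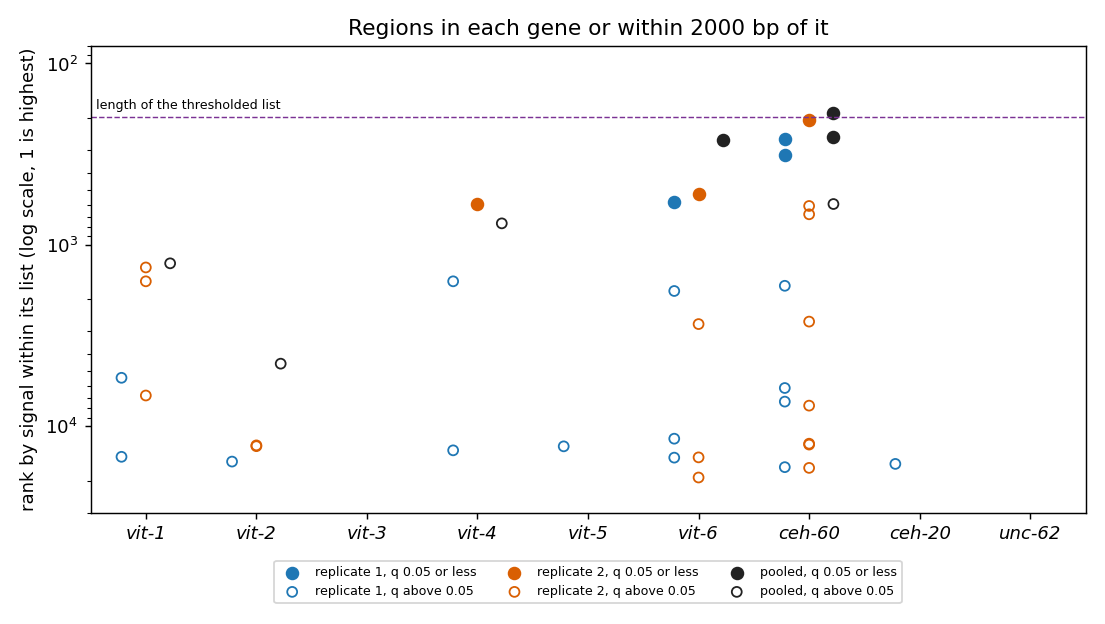
Rank by signal within its list (vertical log scale, rank 1 highest) of every region in each of the 9 genes or within 2000 bp of it, for replicate 1 (blue), replicate 2 (orange) and the pooled list (black). Filled circles have a q-value of 0.05 or less, and the dashed line marks the 197 regions kept after thresholding, which the pooled region of ceh-60 at rank 187 passes.

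ceh-60, a Pbx-type homeodomain gene of 7551 bp and 10 exons, runs on the minus strand of chromosome X (chrX:6522596-6530146, ce11). It had 1 thresholded region, 3 pooled regions, 6 regions in replicate 1 and 8 in replicate 2. As many as 3 pooled regions were found at 2.02% of nuclear protein-coding genes. The highest lay inside the gene near its 3′ end, and the next lay upstream of its start.

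The thresholded region of ceh-60 covered chrX:6522757-6523172 and had its summit in coding exon 9, 7181 bp from the annotated start. Its rank was 187 in the pooled list, with a signal value of 20.9 and a q of 0.0381. In replicate 1 the matching region had rank 318 and a q of 0.0142. In replicate 2 it had rank 205 and a q of 0.0171. The summits of the replicates were 67 bp apart, in intron 9 for replicate 1 and in exon 9 for replicate 2, and the regions shared 353 bp. The region was thus matched between replicates and had a q under 0.05 in each.

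The region stood close to the edge of the thresholded list. The lowest kept region, at rank 197, had a pooled signal value of 20.609, and the highest one left out, at rank 198, had 20.588. The q-value does not separate these regions, since 276 pooled regions shared the lowest q of 0.0381.

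The place of this summit is also near a neighbouring gene. ets-4, which encodes an ETS-family transcription factor, lies tail to tail with ceh-60 and overlaps it by 72 bp. The summit was 369 bp inside the 3′ end of ceh-60 and 298 bp beyond the end of ets-4. The nearest annotated protein-coding start was that of ets-4, at 4082 bp. A region is assigned here by position and not by the gene it may act on.

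The upstream region of ceh-60 covered chrX:6530665-6531080, with its summit 727 bp before the start in intergenic sequence. It ranked 256 in the pooled list with a signal value of 18.9 and a q of 0.0381, below the last thresholded region. Replicate 1 had it at rank 261 with a q of 0.00576, which made it the highest ceh-60 region of that replicate. Replicate 2 had it at rank 679 with a q of 0.0626. The summits of the replicates were 14 bp apart and the regions shared 404 bp. The replicates thus placed it at the same position but at different rank, and they put the pair of ceh-60 regions in opposite order.

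The remaining pooled region of ceh-60 had rank 596 and a q of 0.155, in a coding exon of ets-4, 1377 bp past the end of ceh-60. Replicate 1 had rank 1684 there, with a q of 0.0609. Replicate 2 had ranks 611 and 2654, with q-values of 0.0516 and 0.345. None of these passed a q of 0.05.

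**Figure D2:**
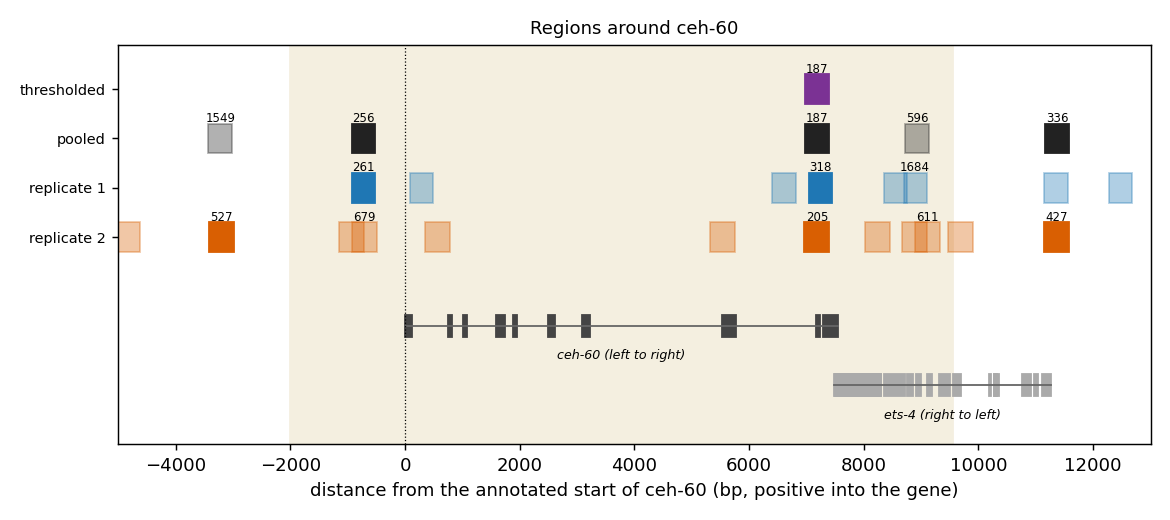
Regions around ceh-60 against distance from its annotated start (horizontal axis in bp, positive into the gene), for the thresholded, pooled, replicate 1 and replicate 2 lists, with exons of ceh-60 (dark) and ets-4 (grey). Numbers are ranks up to 2000, full colour marks a q-value of 0.05 or less, and the shaded span is the gene with 2000 bp on each side; the region at 7181 bp is full in all 4 rows, and the one at 727 bp upstream in the pooled list and replicate 1.

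The bases around the ceh-60 summits are shown because they carry the highest pooled regions at any of the 9 genes and differ in the words they hold. Each line gives 201 bases centred on the pooled summit, read 5′ to 3′ on the minus strand of ce11, chrX:6522865-6523065 for the exon 9 summit and chrX:6530773-6530973 for the upstream summit. Capitals mark a match to any of 4 words searched on both strands: TGACAG, the core of many Meis sites; TGTCAAT and CTGATAA, known as the yolk gene elements VPE1 and VPE2; and TGATTGACA, a joint Pbx and Meis word.
ceh-60 exon 9: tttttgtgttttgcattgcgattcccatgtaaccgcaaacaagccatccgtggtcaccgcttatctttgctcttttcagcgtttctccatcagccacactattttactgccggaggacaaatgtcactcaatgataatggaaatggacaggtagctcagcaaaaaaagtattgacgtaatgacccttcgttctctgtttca
ceh-60 upstream: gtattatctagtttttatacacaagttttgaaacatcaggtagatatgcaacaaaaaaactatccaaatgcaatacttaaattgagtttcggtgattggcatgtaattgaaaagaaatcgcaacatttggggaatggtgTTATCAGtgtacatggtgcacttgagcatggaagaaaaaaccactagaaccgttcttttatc
The exon 9 window held none of the 4 words. The upstream window held 1 copy of CTGATAA, printed as its reverse complement, and none of the others. Within 100 bp of the summit, TGACAG was present at 26.7% of the 176 nuclear thresholded regions, CTGATAA at 21.6%, TGTCAAT at 13.1% and TGATTGACA at 2.27%. Over all 4828 nuclear pooled regions these shares were 9.61%, 9.47%, 5.72% and 0.704%. The absence of a word says only that these letters are not in the window.

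A pooled region as high as that of ceh-60 was found at 1.18% of nuclear protein-coding genes. For its best region in replicate 1, at rank 261, the share was 1.75%, and for replicate 2, at rank 205, it was 1.26%. Overlapping replicate regions that both ranked 318 or higher were found at 149 genes, or 0.746%. Long genes offer more room for regions, and among the tenth of genes that are as long as ceh-60 the share was 1.7% in the pooled list, 2.55% in replicate 1, 1.65% in replicate 2 and 1.05% for both replicates. ceh-60 was thus among the higher-ranked genes in every list, and it shared that place with many others.

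The 3 genes whose best ranks in all lists were nearest to those of ceh-60 were F09F7.6, nmad-1 and R11.4, of 4731 genes with a region in each of the 3 longer lists. F09F7.6 had a pooled rank of 188, a replicate 1 rank of 250 and a replicate 2 rank of 220, at a distance of 0.036 on the log10 rank scale. nmad-1 had ranks of 188, 292 and 220, and the regions of F09F7.6 and nmad-1 at ranks 188 and 220 were the same. R11.4 had ranks of 194, 231 and 213. Likeness of ranks says nothing of function.

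ceh-20 (chrIII:6979884-6981785, plus strand), the other Pbx-type gene, had only a replicate 1 region at rank 16182 with a q of 0.835, in an intron 607 bp from the start. A region at least this high in replicate 1 was found at 64.9% of genes, so it does not set ceh-20 apart. The nearest pooled region was 3309 bp upstream at rank 1799, in a coding exon of the neighbouring gene F31E3.2. The encoded proteins of ceh-60 and ceh-20 were 24.5% identical over their length.

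unc-62 (chrV:4497461-4511449, plus strand) had no region in any list within 2000 bp, although its window of 17989 bp was the widest of the 9. Among the tenth of genes of similar length, 47.6% had a pooled region, 91.2% a replicate 1 region and 93.2% a replicate 2 region. The nearest region was 18030 bp away in the pooled list, 12143 bp in replicate 1 and 9055 bp in replicate 2. The worms carried further unc-62 sequence in the tagged array, and what this does to signal against a control at this gene was not tested. In the reference genome, 100% of the 50-base words of the gene, after rounding, occurred once, as did 99.5% of its 36-base words. Copies in the array are not counted in these values.

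vit-6 (chrIV:8261157-8266459, plus strand) encodes the vitellogenin least like the others, with 29.5% to 30.6% identity to VIT-1 through VIT-5. It is the only yolk gene off chromosome X and was the only one with overlapping regions in both replicates. Its pooled region covered chrIV:8260771-8261186 with the summit 178 bp before the start, at rank 264, with a signal value of 18.7 and a q of 0.0381. Replicate 1 had rank 583 and a q of 0.0163, with the summit 156 bp before the start. Replicate 2 had rank 528 and a q of 0.0389, with the summit 51 bp before the start. The summits were 105 bp apart and the regions shared 315 bp. Both replicates therefore had a region across the start of vit-6 at a q of 0.05 or less, and it was not in the thresholded list.

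The replicate 2 summit of vit-6 lay in an exon of K07H8.16, a non-coding RNA gene on the other strand that starts 7 bp before vit-6. A pooled region as high was found at 1.7% of nuclear protein-coding genes. The shares were 3.9% for replicate 1 and 3.53% for replicate 2, and overlapping regions that both ranked 583 or higher were found at 249 genes, or 1.25%. Each replicate held 3 further regions within 2000 bp of vit-6, with ranks from 1799 to 14942 in replicate 1 and from 2739 to 19230 in replicate 2 and q-values above 0.05. The best of these, in replicate 1, lay in coding exon 3 with a q of 0.0676.

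vit-1 (chrX:7727889-7733168, plus strand) had a pooled region over chrX:7727548-7727963, with the summit 133 bp before the start, at rank 1266, with a signal value of 11.0 and a q of 0.431. Replicate 2 had it at rank 1591 with a q of 0.195, its summit 117 bp before the start. Replicate 1 had no region there; its nearest upstream region, 870 bp before the start, had rank 14784, and another 415 bp past the end of the gene had rank 5419. A pooled region as high was found at 7.99% of genes. The region rested on replicate 2 among the single lists and did not reach a q of 0.05 in any.

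Farther upstream of vit-1 lies spp-14, a saposin-like gene. A pooled region of rank 586 and q 0.151 had its summit 174 bp before the start of spp-14 and 2084 bp before that of vit-1, just outside the window. Replicate 2 had rank 740 there and replicate 1 rank 6372. The highest replicate 2 region inside the vit-1 window, at rank 1334 with a q of 0.169, lay in a coding exon of spp-14.

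vit-4 (chrX:3558769-3563965, minus strand) had a pooled region at rank 762 with a q of 0.209, 1070 bp past the end of the gene and in the 3′ UTR of rgs-7, a gene for a regulator of G protein signalling. Replicate 2 had it at rank 597 with a q of 0.0461, 1049 bp past the end. The nearest region of replicate 1 on that side, 1686 bp past the end in a coding exon of rgs-7, had rank 1591 and a q of 0.0525 and did not overlap it. A pooled region as high was found at 4.94% of genes. Inside the gene the only region was in replicate 1, in a coding exon 770 bp from the start, at rank 13619 with a q of 0.650. No list held a region upstream of vit-4 within 2000 bp.

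vit-2 (chrX:5101042-5106169, plus strand) had a pooled region at rank 4529 with a q of 0.95, 1466 bp past its end. Replicate 1 had a region 19 bp into the gene at rank 15710, and replicate 2 had regions 622 bp upstream at rank 12918 and 1488 bp past the end at rank 12788. Regions as high were found at 25.5% of genes in the pooled list, 63.8% in replicate 1 and 55% in replicate 2. vit-5 (chrX:3403471-3408603, plus strand) had only a replicate 1 region, 262 bp into the gene, at rank 12945 with a q of 0.653, a rank reached at 56.9% of genes. vit-3 (chrX:3567355-3572549, minus strand) had none, and its nearest region was 4160 bp past its end in replicate 1, inside vit-4. No region at these 3 genes had a q below 0.653.

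**Figure D3:**
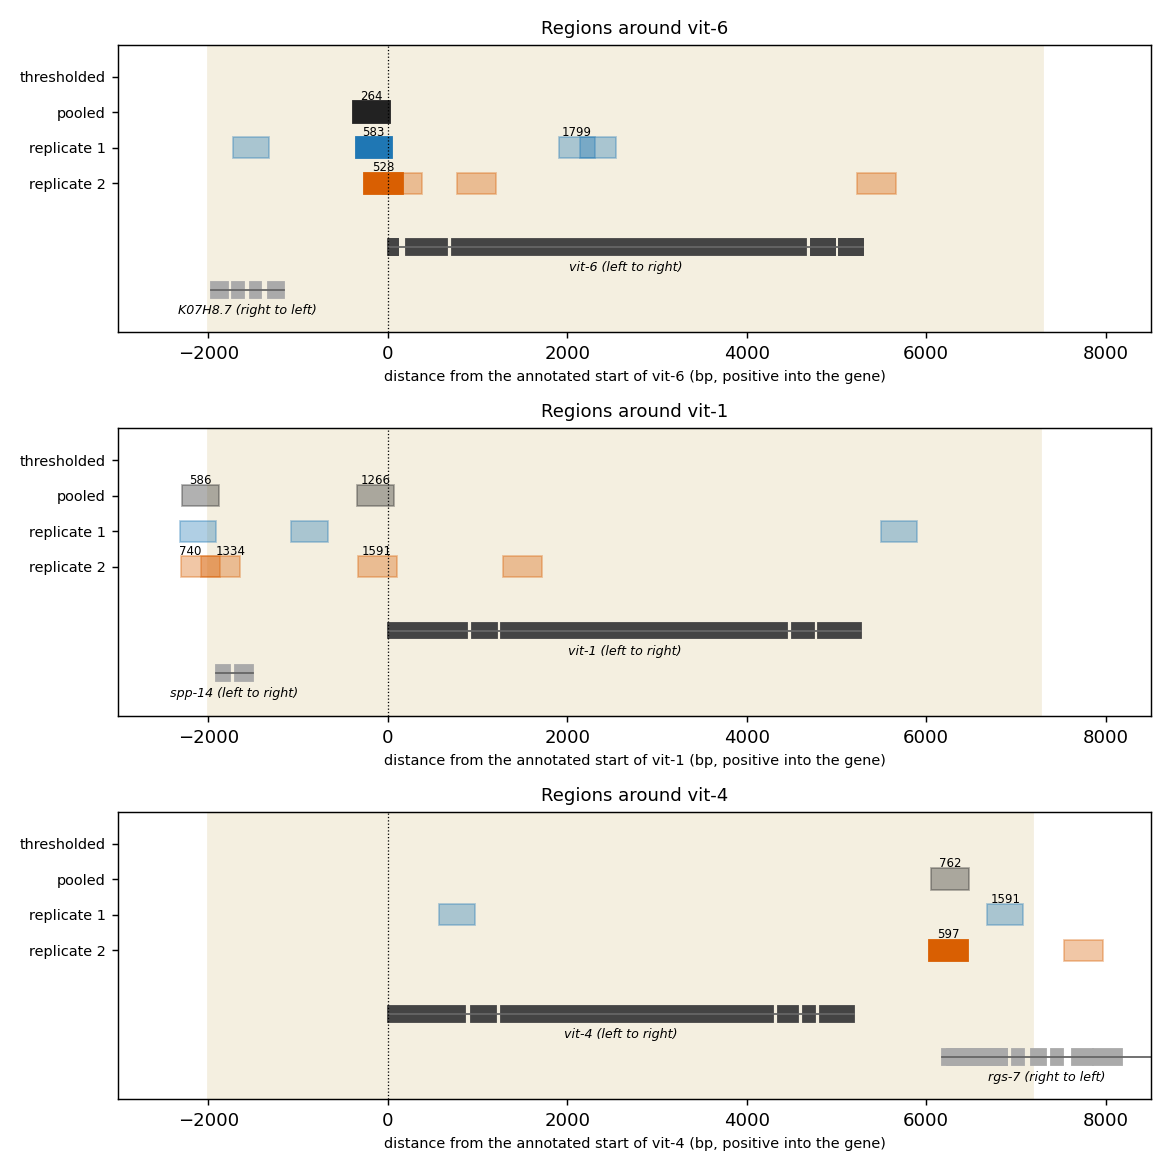
Regions around vit-6, vit-1 and vit-4 against distance from each annotated start (horizontal axes in bp, positive into the gene), for the thresholded, pooled, replicate 1 and replicate 2 lists, with exons of the yolk gene (dark) and of a neighbour (grey). Numbers are ranks up to 2000, full colour marks a q-value of 0.05 or less, and the shaded span is the gene with 2000 bp on each side; vit-6 has full-colour regions across its start in 3 rows, and vit-4 has 1, past its end in replicate 2.

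**Figure D4:**
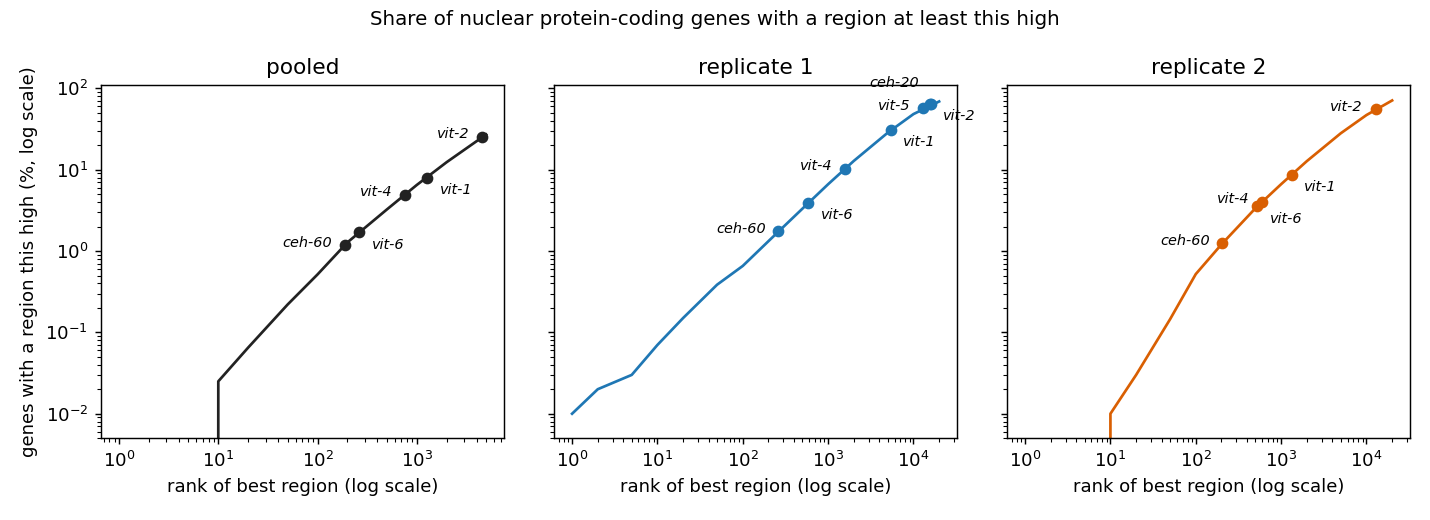
Percent of the 19973 nuclear protein-coding genes with a region at least as high as a given rank (both axes on a log scale), in the pooled, replicate 1 and replicate 2 lists, with a point at the best region of each of the 9 genes that had one. ceh-60 sits lowest in each list, at 1.18%, 1.75% and 1.26%, with vit-6 next in each, at 1.7%, 3.9% and 3.53%.

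The bases just before the yolk genes are shown because the same short words recur there whether or not a region was found. Each line gives the 200 bases before the annotated start, read 5′ to 3′ on the gene's strand in ce11: chrX:7727689-7727888 (plus) for vit-1, chrX:5100842-5101041 (plus) for vit-2, chrX:3572550-3572749 (minus) for vit-3, chrX:3563966-3564165 (minus) for vit-4, chrX:3403271-3403470 (plus) for vit-5 and chrIV:8260957-8261156 (plus) for vit-6. Capitals mark any of the same 4 words on either strand. TGACAG and TGTCAAT overlap where the sequence reads CTGTCAAT, and TGATTGACA contains TGTCAAT on its other strand.
vit-1: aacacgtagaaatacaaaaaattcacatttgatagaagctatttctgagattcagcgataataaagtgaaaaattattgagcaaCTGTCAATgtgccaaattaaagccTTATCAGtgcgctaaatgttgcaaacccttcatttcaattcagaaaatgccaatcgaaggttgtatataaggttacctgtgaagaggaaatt
vit-2: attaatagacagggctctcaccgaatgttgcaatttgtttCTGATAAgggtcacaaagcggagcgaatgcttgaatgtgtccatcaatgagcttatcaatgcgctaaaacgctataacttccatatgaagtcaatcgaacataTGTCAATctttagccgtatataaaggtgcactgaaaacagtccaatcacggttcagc
vit-3: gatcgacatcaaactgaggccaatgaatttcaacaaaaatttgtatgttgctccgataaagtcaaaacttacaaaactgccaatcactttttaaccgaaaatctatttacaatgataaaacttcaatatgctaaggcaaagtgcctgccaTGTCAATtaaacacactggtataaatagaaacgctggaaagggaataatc
vit-4: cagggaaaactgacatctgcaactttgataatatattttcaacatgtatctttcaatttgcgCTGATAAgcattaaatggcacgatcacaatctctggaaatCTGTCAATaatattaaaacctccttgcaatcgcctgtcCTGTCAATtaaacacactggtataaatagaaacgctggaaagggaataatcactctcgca
vit-5: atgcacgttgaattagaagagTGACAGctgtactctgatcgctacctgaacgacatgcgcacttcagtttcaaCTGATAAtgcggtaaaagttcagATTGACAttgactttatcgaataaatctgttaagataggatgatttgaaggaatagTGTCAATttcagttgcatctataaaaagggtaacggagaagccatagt
vit-6: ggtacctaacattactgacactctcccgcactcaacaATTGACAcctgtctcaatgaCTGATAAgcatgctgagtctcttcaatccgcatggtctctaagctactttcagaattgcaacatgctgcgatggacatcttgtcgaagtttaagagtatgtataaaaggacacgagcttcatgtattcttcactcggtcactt
In the promoter, taken as 250 bp before to 50 bp after the start, TGTCAAT was present at all 6 yolk genes and at 5.77% of all promoters. CTGATAA was present at 5 of the 6, vit-3 being without it, and at 8.15% of all promoters. TGACAG was present at 3 of the 6, vit-1, vit-4 and vit-5, and at 9.68% of all promoters. TGATTGACA was present at none of the 6 and at 0.35% of all promoters. TGTCAAT and CTGATAA were defined from yolk gene promoters, so their presence there is given as a description.

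The words did not sort the yolk genes by their regions. vit-6, with the highest pooled yolk region, had 1 TGTCAAT, 1 CTGATAA and no TGACAG in its promoter. vit-1 had 1 copy of each of these 3 words within 116 bp of its start and a pooled region of rank 1266. vit-4 had 2 TGACAG, 2 TGTCAAT and 1 CTGATAA, and vit-5 had 1, 2 and 1 of them, with no region upstream of either gene. In the vit-6 sequence, TGTCAAT on the other strand begins 163 bp and CTGATAA 143 bp before the start, both downstream of the pooled summit. Of the TALE genes, ceh-60 had 1 TGACAG in its promoter, and ceh-20 and unc-62 had none of the 4 words.

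The yolk genes include near copies, which bears on regions inside the genes. VIT-3, VIT-4 and VIT-5 were 97.9% to 98.7% identical in protein sequence, and VIT-1 and VIT-2 were 93.9% identical. Of the 50-base words inside each gene, 25.9% of those of vit-3, 21.4% of vit-4 and 50.9% of vit-5 occurred once in the genome, against 87.2% for vit-1, 86.9% for vit-2 and 100% for vit-6. In the 2000 bp before the start, from 99.5% to 100% of words occurred once at each of the 9 genes. Over the whole ceh-20 window, with 2000 bp on each side, 78.7% of words did, although its gene and upstream interval were at 100%. Reads that match several copies may be lost or split, and no source used here says how the authors treated them. The upstream intervals of vit-2, vit-3 and vit-5 were nearly all unique sequence. In them the lists held 1 summit, that of a vit-2 region in replicate 2. Whether lost or split reads bear on these counts was not tested.

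**Figure D5:**
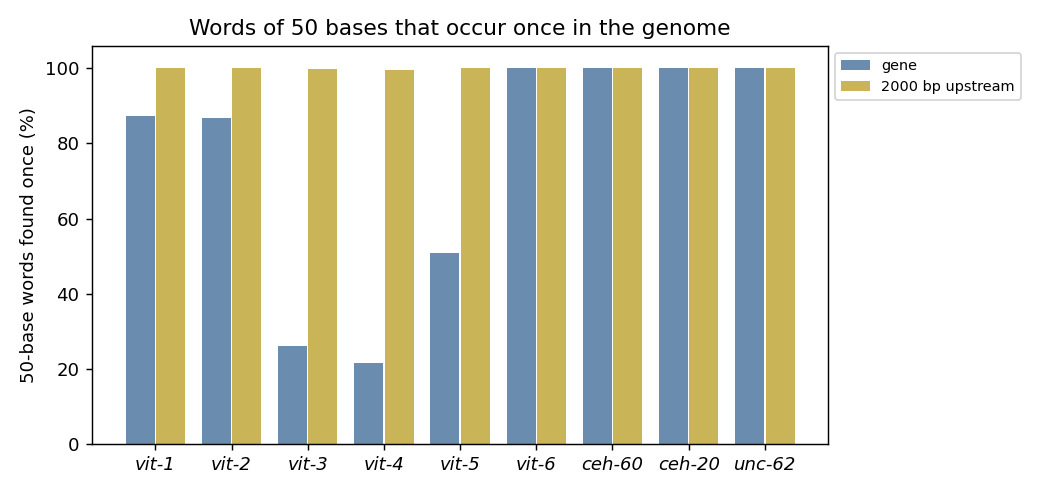
Percent of 50-base words that occur once in the reference genome (vertical axis, from 0), inside each of the 9 genes (blue bars) and in the 2000 bp before its start (yellow bars). The gene bars of vit-3, vit-4 and vit-5 are the lowest, at 25.9%, 21.4% and 50.9%, and all upstream bars are at 99.5% or above.

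Genes that act with the yolk genes were read from the same lists. Of 10 genes for yolk assembly and uptake, among them the yolk receptor gene rme-2, 7 had a pooled region, against 27% of all nuclear protein-coding genes, and none had a thresholded one, against 1.25%. Overlapping replicate regions lay at 4 of the 10, against 27.2%. These shares take no account of gene length. Of the 10 genes, rme-1, rme-4, rme-6, rme-8, chc-1 and dsc-4 are longer than vit-6. Among genes of similar length to vit-6 (the same decile), 36.4% had a pooled region. Whether the counts at the 10 genes exceed those at genes of like length was not tested. A region with a q of 0.05 or less lay at 3 of the 10 in replicate 1, rme-1, rme-4 and rab-5, against 9.89%, and at none in the pooled list or replicate 2, against 2.31% and 4.1%. rme-4 had a q of 0.0124 at rank 526 and rab-5 a q of 0.0322 at rank 1041 in replicate 1, and neither gene had overlapping regions in both replicates. rme-1, an EHD-family gene of endocytic recycling, had the highest pooled rank of the 10, 467, in an intron. It was found in replicate 1 at rank 1442 with a q of 0.0475 and in replicate 2 at rank 804 with a q of 0.0915.

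Of 17 genes known to regulate yolk genes or their timing, including the miRNA genes lin-4 and let-7, 8 had a pooled region, 11 had overlapping replicate regions, and 4 had such regions with a q of 0.05 or less in each replicate. The shares over all nuclear protein-coding genes, given above, were 27%, 27.2% and 1.77%. These shares take no account of gene length. Of the 17 genes, daf-2, daf-16, tra-1, lin-14, rict-1, lin-29 and lin-41 are longer than ceh-60. Among genes of similar length to ceh-60 (the same decile), 47.6% had a pooled region. Whether the counts at the 17 genes exceed those at genes of like length was not tested. Thresholded regions lay at pqm-1 and daf-16. pqm-1, a zinc finger factor gene, had the highest rank, 25 in the pooled list, 23 in replicate 1 and 37 in replicate 2, with the pooled summit 352 bp past its end in a coding exon of arrd-6. daf-16, the FOXO factor gene, had ranks of 101, 282 and 120 in an intron. lin-14, a heterochronic factor gene, had best ranks of 203, 237 and 247, but not all at the same place. The replicate 1 region lay 1448 bp upstream of its start, and the pooled and replicate 2 regions lay in an intron. In the best overlapping pair of replicate regions at lin-14, the lower-ranked region stood at 575. mab-3, whose product represses yolk genes in males, had best ranks of 483, 903 and 443. These summits lay 1017, 1010 and 681 bp past its end, and the pooled region had a q of 0.103. pqm-1 ranked above ceh-60 in all 3 of these lists, daf-16 in the pooled list and replicate 2, and lin-14 in replicate 1.

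Of 3 other TALE genes, irx-1, an Iroquois-type gene, had a thresholded region in an intron, at pooled rank 150, replicate 1 rank 91 and replicate 2 rank 298. Its pooled summit window held TGATTGACA, whose other strand is the only TGTCAAT of the window, and 1 copy of TGACAG. ceh-40, of the Pbx type, and psa-3, of the Meis type, had no pooled region, while 27% of all nuclear protein-coding genes had one. In replicates 1 and 2 the best ranks were 5012 and 5748 at ceh-40 and 6187 and 4045 at psa-3. All had a q above 0.05, and neither gene had overlapping regions in both replicates.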

How the data were processed

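Peak lists were deposited for 2 replicate ChIP-seq samples. Per the file headers of the read-me texts, each replicate list was made from 1 replicate against a control, the pooled list from both replicates against a control, and the thresholded list from comparing these lists. The authors' signal value, made against a control on a scale that no source used here states, ranked regions within a list only. The deposited −log10 q-value was turned into q. No source used here names the aligner, the caller, their versions or the read handling. The lists carry no reads, so depth is unknown. Lists on ce11 were used, the build of WBcel235, with Ensembl release 115 genes and RefSeq sequence; no region lay past a chromosome end. Lists on ce10 were not analysed here. miRNA symbols were matched to RefSeq by position. Promoters were cut from that genome.

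A region belonged to a gene when its summit lay in the gene or within 2000 bp. Mitochondrial regions kept their ranks but could be at none of the genes counted. Words were searched within 100 bp of summits. Protein identity came from global alignment of translated coding sequences with Biopython 1.88 (BLOSUM matrix, gap open 11, extension 1, end gap 0.5), and the overlap of regions, ranks and shares from Python 3.11.15, numpy 2.4.6 and pandas 2.3.3; figures used matplotlib 3.10.9. Counting steps were tested on simulated data. Results are descriptions with no test, since there is 1 group and no comparison between conditions.

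The 9 genes, the other gene lists, words and windows were chosen with earlier results of these data known. All 9 genes are named. Others are named by rule: genes whose start is nearest to a region, listed genes with a thresholded region, and the 3 genes nearest to ceh-60 in log10 rank. The rule also takes listed genes with overlapping replicate regions of which at least 1 had a q of 0.05 or less. rme-2, rme-4, rab-5, lin-4, let-7, ceh-40 and psa-3 are named outside that rule, after their values were seen. So are rgs-7, arrd-6 and K07H8.16, because a summit lay in them. Listed genes named only for their length are outside the rule too. These are daf-2, tra-1, rict-1, lin-29, lin-41, rme-6, rme-8, chc-1 and dsc-4. Alternatives were windows of 500 and 5000 bp, any shared base in place of the summit, q limits of 0.01 and 0.1, other definitions of overlap, ranking by q, all annotated genes, genes of like length, a promoter of 1000 bp, and each replicate alone, the last added after seeing the data.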

Additional observations from a re-analysis of the deposited data

How the results depend on the processing

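With a window of 500 bp in place of 2000 bp, genes with a region fell from 5 to 3 of 9 in the pooled list and from 5 to 3 in replicate 2. When summits of the replicates had to lie within 100 bp, overlapping regions were left at 1 gene, ceh-60, in place of 2. At a q of 0.01 or less, replicate 1 had a region at 1 gene, and replicate 2 and the pooled list at 0. Their lowest q-values, 0.0131 and 0.0381, allow no other count, so this limit says nothing of either. Read from 1 replicate in place of the pool, the count of genes with a region was 5 to 7 and that with a q of 0.05 or less 2 to 3. The other counts of genes stayed within 1.5 times their value under these windows, overlap definitions and q limits. Shares of all genes were not set beside these counts. A narrower window or a stricter limit can lower such a share as well, so these falls cannot be read as particular to the 9 genes.

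The share of genes with a pooled region as high as that of ceh-60 ranged from 0.611% to 2.15% over the alternatives, that for vit-6 from 0.881% to 3.1%, that for vit-4 from 3.65% to 8.64%, that for vit-1 from 4.62% to 10.9% and that for vit-2 from 19.6% to 39.4%. At 500 bp, vit-4 and vit-2 had no pooled region and so no share. In the 1000 bp before the start, TGTCAAT was at 6 of 6 yolk genes and 18.5% of promoters, CTGATAA at 6 and 20.8%, TGACAG at 5 and 29.1%, and TGATTGACA at 0 and 1.18%. No paired analysis was possible because there is a single group. Without read counts, weak binding and no binding cannot be told apart, so a gene with no region is one where none was detectable in these lists.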

Other observations

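Within 5000 bp of ceh-60, a distance chosen after seeing the data, the pooled list held 5 regions, and as many were found at 169 nuclear protein-coding genes, or 0.846%. Of these regions, 3 had a q of 0.05 or less, which was the case at 1 gene only, ceh-60 itself, while at least 2 were found at 71 genes, or 0.355%. They were the exon 9 region, the upstream region, and a region 111 bp before the start of ets-4, 3824 bp past the end of ceh-60, at pooled rank 336 with a q of 0.0492. Replicate 2 had the ets-4 region at rank 427 with a q of 0.0246, and replicate 1 had it at rank 10277 with a q of 0.519. A further pooled region 3223 bp upstream of ceh-60, at rank 1549, was matched in replicate 2 at rank 527 with a q of 0.0389 and by no overlapping region of replicate 1. The order of the regions around ceh-60 thus differed between the replicates.

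At 4799 bp past the end of vit-4, in an intron of rgs-7, replicate 1 held a region at rank 691 with a q of 0.0224, its highest within 5000 bp of any of the yolk genes on chromosome X. In the pooled list that region had rank 4271 and a q of 0.933.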
